A study of Rattus norvegicus with 6 samples.

Results

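The last time point of a rat astrocyte culture series was compared between genotypes: the array of M337V cells 6 days after doxycycline (Dox) withdrawal, M337V-6d, against the control array of the same day, tTA-6d. These are 2 of the 6 arrays of the series, taken by their labelled genotype and day, and the other 4 arrays (both genotypes on days 3 and 4) served as the yardstick for how far arrays differ. RNA came from cultured primary astrocytes and was hybridised to Illumina rat beadchips, which read each transcript with bead-bound probes. Both genotypes carried GFAP-tTA, a transgene in which the astrocyte promoter of Gfap drives the tetracycline-controlled activator tTA. M337V cells came from rats that in addition carried TRE-TDP43M337V, a mutant TDP-43 under tetracycline-regulated elements, and tTA cells came from rats with GFAP-tTA alone. Dox holds the TRE promoter off, and its withdrawal lets tTA act, in both genotypes, for 3, 4 or 6 days. Nothing in the labels tells separate cultures from repeated sampling of 1 culture, how many rats were pooled, or their age. With 1 array a side the genotype difference at day 6 has no test, and a batch or culture shared by a genotype cannot be told apart from the genotype.

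TDP-43, encoded by Tardbp, is an RNA-binding protein of the nucleus that controls splicing and stability of many transcripts, and the M337V substitution is found in familial amyotrophic lateral sclerosis. Astrocytes take up glutamate, feed neurons, shape the matrix around them and, in injury, become reactive and secrete inflammatory proteins. Cultures of newborn astrocytes also keep cells of other kinds, among them microglia, oligodendrocyte precursors, ependymal cells and fibroblast-like cells of the meninges.

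Levels are log2 of the normalized signal, and each difference is M337V minus tTA on that scale. They are compared within a gene across arrays, never between genes. A gene was measured where its probe had a detection p-value under 0.05 on either day 6 array, which left 8298 genes of 13337 named on the array. Of these, 6976 were detected on both day 6 arrays, 850 on M337V-6d only and 472 on tTA-6d only. The yardstick of a gene is the larger of its differences between day 3 and day 4 within the genotypes. It comes from 2 pairs of arrays a day apart, so it holds any change between those days as well as the spread of the assay, and the 4 arrays behind it are not in the day 6 difference. A gene counts as beyond the yardstick where its day 6 difference was at least 2-fold, a log2 difference of 1, and larger than its own yardstick.

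The arrays had mean signals of 377 to 554, with 43.8% to 48.3% of their probes detected. Over the measured genes, arrays of one genotype correlated at 0.981 to 0.992, and the day 6 arrays correlated with each other at 0.958. The correlations are across genes, which are not independent replicates, and they carry no p-value.

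The astrocyte label of the cultures was borne out by Gfap, the intermediate filament of astrocytes, with levels of 14.92, 15.004 and 15.12 in tTA and 15.05, 15.12 and 15.05 in M337V on days 3, 4 and 6. Aqp4, the water channel of astrocyte endfeet, and Slc1a3, a glutamate transporter, were also detected on all 6 arrays. Rbfox3, which defines neurons, and Cdh5, which defines endothelium, were detected on none. Other genes of those cell types were detected, among them the neuronal Syt1 on 5 arrays, Tubb3 on 4 and Snap25 on 3, and the endothelial Vwf and Flt1 on 5 and Tie1 on 4, and their part in the differences was not tested. Tardbp stood at 11.10, 10.88 and 10.63 in tTA and at 11.21, 11.24 and 10.84 in M337V. Its differences were 0.11, 0.36 and 0.21 against a yardstick of 0.22, so the day 6 arrays lay within the yardstick for the induced gene's own symbol. No source used here says whether the rat Tardbp probe reads the transgene's RNA.

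At day 6 more of the genes that were at least 2-fold apart were higher than lower in M337V. There were 432 genes at least 2-fold higher in M337V (5.21% of the genes measured) and 174 at least 2-fold lower (2.1%). These counts move with the processing, to 191 and 55 without background correction, 202 and 74 in the deposited values and 598 and 98 with median scaling. Beyond the yardstick were 426 higher (5.13%) and 169 lower (2.04%), together 595 genes (7.17%). Of the genes at least 2-fold apart 71.29% were higher, a share with a 95% exact binomial interval of 67.5% to 74.9%. The interval covers counting error at most, and only if the genes were independent draws. They are not independent, since they share the same pair of arrays, so the interval does not give the precision of the share. The share depends on the scaling between arrays, and with the arrays scaled by their medians it was 85.92%, outside that interval. The median of all genes was -0.06 on the quantile scale used here and 0.15 with median scaling.

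The imbalance grew with size. At least 4-fold apart were 149 higher and 18 lower genes, at least 8-fold 66 and 2, and at least 16-fold 27 and 0. Where only 1 of the day 6 arrays detected a gene, the other array gives only an upper limit on its signal. With such genes at their bound, the counts at 8-fold were 54 and 2 and at 16-fold 23 and 0. Of the 426 higher genes, 261 were detected on both day 6 arrays and 165 on M337V-6d only. Of the 169 lower genes, 149 were detected on both and 20 on tTA-6d only.

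Arrays of one genotype on days 3 and 4 differed less from each other. From day 3 to day 4, 81 genes differed at least 2-fold in tTA (0.976%) and 62 in M337V (0.747%), counted either way. The median size of a difference was 0.27 between the day 6 arrays, against 0.18 in tTA and 0.17 in M337V from day 3 to day 4. At the 95th percentile the sizes were 1.22, 0.67 and 0.63. The genotype differences on day 4 counted 335 genes higher (4.04%) and 137 lower (1.65%), and on day 3, 327 higher (3.94%) and 176 lower (2.12%). All these counts use genes detected on a day 6 array, which favours day 6. Among genes detected on either array of the day itself, a setting chosen after seeing the data, 4.19%, 4.13% and 5.21% were at least 2-fold higher on days 3, 4 and 6 and 2.36%, 1.71% and 2.1% lower. Among the 6335 detected on all 6 arrays, 189, 183 and 222 were higher and 138, 119 and 149 lower.

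**Figure D1:**
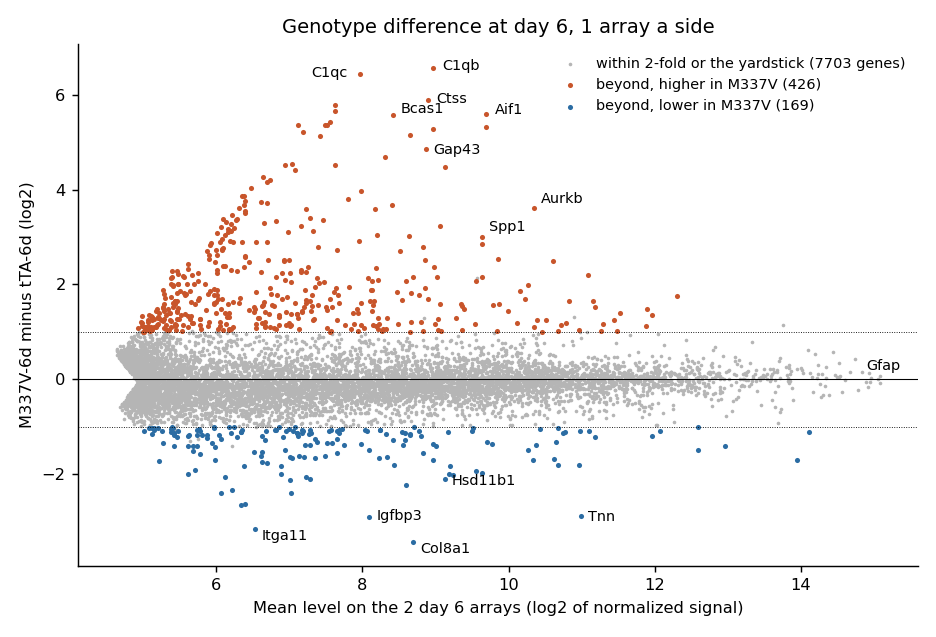
The day 6 difference of each of the 8298 genes (vertical, log2, M337V-6d minus tTA-6d) against its mean level on the 2 day 6 arrays (horizontal, log2 of normalized signal), 1 array a side. Orange points are the 426 genes beyond the yardstick and higher in M337V, blue points the 169 lower ones, grey points the rest, and dotted lines mark 2-fold. The orange points reach 6.58 and the blue ones -3.44.

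**Figure D2:**
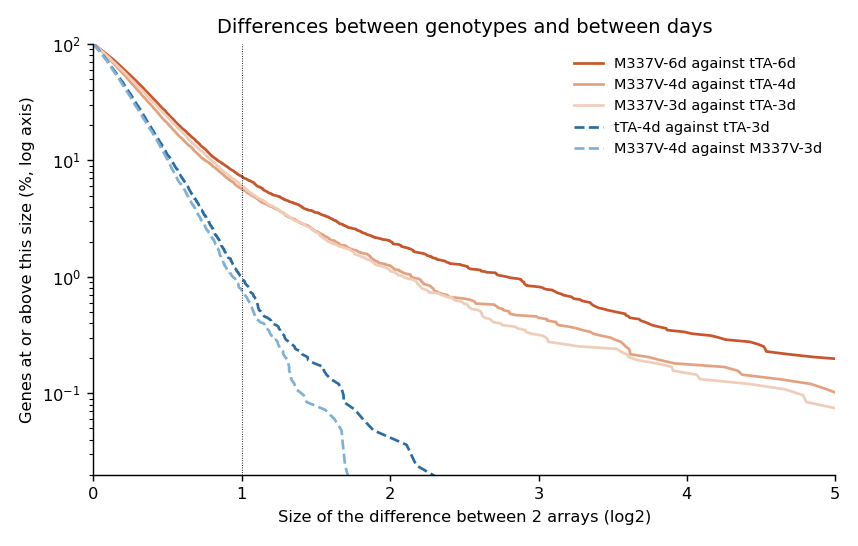
Share of the measured genes (vertical, percent, log axis) whose difference between 2 arrays was at least the size on the horizontal axis (log2), for the genotype pairs of each day (solid lines) and for day 4 against day 3 within each genotype (dashed lines). At a size of 1, marked by the dotted line, the day 6 pair lies at 7.3% and the within-genotype pairs at 0.976% and 0.747%.

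Microglia and macrophage genes had the highest median difference of the 48 gene lists at day 6. Of the 24 members of that list measured, 18 were beyond the yardstick and higher in M337V and 0 were lower, with a median difference of 3.60 against -0.06 for all genes. The median of the list was 2.72 on day 3 and 2.92 on day 4. Over all genes measured, 5.13% were beyond the yardstick and higher and 2.04% lower, shares to set beside this and each later list count. In bulk RNA such as this, more cells of a type and more RNA per cell cannot be told apart. The first component of the classical complement cascade, C1q, is made in the brain mainly by microglia and led the list. C1qb had levels of 4.43, 4.42 and 5.68 in tTA and 9.67, 10.46 and 12.26 in M337V on days 3, 4 and 6. All 3 M337V arrays lay above all 3 tTA arrays, and the day 6 difference was 6.58, or 95.5-fold, with a yardstick of 0.79. C1qc stood at 11.19 on M337V-6d and was not detected on tTA-6d, a difference of at least 74.6-fold. C1qa, the remaining chain, was likewise undetected on tTA-6d and at 10.52 on M337V-6d, at least 47-fold higher.

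Ctss, the lysosomal cathepsin S of antigen-presenting cells, had levels of 4.54, 4.77 and 5.94 in tTA and 10.15, 10.20 and 11.84 in M337V. Its day 6 difference of 5.90 was 59.7-fold, with a yardstick of 0.23. Aif1, the actin-bundling protein Iba1 by which microglia are stained, had 4.51, 4.76 and 6.89 in tTA and 10.75, 11.10 and 12.50 in M337V. The day 6 difference was 5.60, or 48.7-fold, and was smaller than the 6.24 and 6.34 of days 3 and 4. The tTA-6d array lay 2.26 above the mean of the earlier tTA arrays, and M337V-6d lay 1.57 above the mean of its own. Aif1 was not detected on those earlier tTA arrays, whose lowest detected signals were 5.01 and 5.02. The 2.26 and the differences of days 3 and 4 thus rest on undetected signals. Trem2, a lipid-sensing receptor of microglia, and Fcer1g, the signalling chain of Fc receptors, also had all 3 M337V arrays above all 3 tTA arrays. Their day 6 differences were 4.68 and 5.32 against 4.80 and 6.09 on day 3. The tTA arrays of days 3 and 4 did not detect C1qb, Ctss or Trem2 either. Of the 27 microglia genes named on the array, 4, 5 and 13 were detected in tTA on days 3, 4 and 6 and 19, 23 and 23 in M337V. The summed normalized signal of the list was 1036 to 1478 in tTA and 10196 to 30891 in M337V, in each genotype highest on day 6.

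The naming rule takes the 4 members of each list with the largest differences, and list members named beyond those were chosen after their values were seen. Pf4, a chemokine of platelets and macrophages, was at least 44.7-fold higher and the tetraspanin Cd53 at least 18.8-fold higher. Adgre1, an adhesion receptor of macrophages, was at least 14.6-fold higher and the mannose receptor Mrc1 at least 8.86-fold higher. Ptprc, the leukocyte phosphatase CD45, was at least 2.84-fold higher. Itgam, the integrin chain CD11b and a defining marker, was detected on 5 of the 6 arrays with a day 6 difference of 1.14, or 2.21-fold, above its yardstick of 0.50. Its earlier differences were -0.23 and 0.39, so it was above the control array by 2-fold on day 6 and not on days 3 and 4. Csf1r was not analysed here.

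The receptors and enzymes by which phagocytes bind targets and make oxidants followed. Of 23 members measured, 16 were beyond the yardstick and higher and 0 lower. Medians on the 3 days were 1.21, 1.28 and 2.28. Ncf1, a cytosolic subunit of the NADPH oxidase, had levels of 4.60, 4.67 and 4.81 in tTA and 8.19, 8.49 and 10.18 in M337V, and was at least 37-fold higher at day 6. Cybb, its membrane subunit, was at least 2.96-fold higher. Fcgr3a, a low-affinity receptor for IgG, had 4.45, 4.85 and 5.36 in tTA against 8.25, 8.46 and 9.88 in M337V, a day 6 difference of 4.52 (22.9-fold, yardstick 0.40). The tTA arrays of days 3 and 4 did not detect Fcgr3a. The day 6 differences of the Toll-like receptors were 2.80 for Tlr2 and, with tTA-6d not detected, at least 3.08-fold for Tlr7. Casp1 and Pycard, the caspase and the adaptor of the inflammasome, were 8.66-fold and at least 7.14-fold higher. The general lysosome list, by contrast, had 2 of 26 members beyond the yardstick, Ctss and the scavenger receptor Cd36, and a median of -0.10 that turned positive under some other scalings.

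Promoter sequences were read for these lists, from 250 bases before to 50 after each gene's start (RefSeq, rat build GRCr8). PU.1 is the transcription factor that sets myeloid gene expression, and its motif GAGGAAGT was searched on both strands. It occurred in 3 of the 15 microglia and macrophage genes with a promoter (20%), against 2.44% of all 27457 promoters, and in 1 of the 16 of the phagocyte receptor and oxidase list (6.25%), which was Fcgr3a, a member of both lists. The 3 genes are Ctss (chr2:185775146-185775445, plus strand), Cd53 (chr2:197087847-197088146, minus strand) and Fcgr3a (chr13:85782386-85782685, plus strand). They are shown because they hold the motif. All 3 were beyond the yardstick and higher, among 12 such microglia and macrophage genes with a promoter. Sequences run 5′ to 3′ along the gene, and capitals mark the motif, here in its reverse complement. A match describes letters in a window and is no evidence of binding.
Ctss: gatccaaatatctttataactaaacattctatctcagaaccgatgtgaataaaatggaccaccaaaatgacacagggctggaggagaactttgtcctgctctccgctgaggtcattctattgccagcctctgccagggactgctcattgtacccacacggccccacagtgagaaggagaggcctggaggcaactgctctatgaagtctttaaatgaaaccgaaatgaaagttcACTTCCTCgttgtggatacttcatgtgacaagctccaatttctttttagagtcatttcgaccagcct
Cd53: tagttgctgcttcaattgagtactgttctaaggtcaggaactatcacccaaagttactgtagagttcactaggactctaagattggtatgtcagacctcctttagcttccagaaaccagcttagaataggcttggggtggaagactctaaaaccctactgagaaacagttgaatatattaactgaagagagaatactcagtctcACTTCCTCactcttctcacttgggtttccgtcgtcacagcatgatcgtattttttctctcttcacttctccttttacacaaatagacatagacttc
Fcgr3a: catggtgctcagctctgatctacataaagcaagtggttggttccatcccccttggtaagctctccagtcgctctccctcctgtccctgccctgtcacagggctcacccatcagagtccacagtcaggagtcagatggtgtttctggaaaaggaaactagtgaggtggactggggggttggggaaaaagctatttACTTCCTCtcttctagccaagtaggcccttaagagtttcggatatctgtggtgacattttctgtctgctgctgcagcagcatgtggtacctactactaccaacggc

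Outside the lists, genes of leukocytes were also among the largest differences. Lcp1, the actin-bundling protein L-plastin of blood cells, had levels of 5.55, 5.28 and 6.32 in tTA and 10.60, 10.77 and 11.61 in M337V, a day 6 difference of 5.29 (39.2-fold). Coro1a, coronin of leukocytes, and Arhgdib, a gene of blood cells, were at least 37.5-fold and at least 39.4-fold higher. Lyve1, a hyaluronan receptor of lymphatic vessels and of some tissue macrophages, had 4.33, 4.44 and 4.86 in tTA and 6.51, 8.19 and 9.98 in M337V. It was at least 32.3-fold higher at day 6, against differences of 2.19 and 3.74 on the earlier days. Cd83, a surface protein of activated antigen-presenting cells, differed by 3.98, and Cfp, the complement activator properdin, by 3.81. The list of lymphocyte and blood markers had 3 measured members of 16, none beyond the yardstick (S100a8, Cd3e and Mpo), and its summed signal was 382 to 406 in tTA and 379.5 to 409 in M337V.

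Oligodendrocyte lineage genes formed a group whose difference was larger at day 6 than before. Of 14 members measured 7 were beyond the yardstick and higher and 0 lower. Their median difference went from 0.53 and 0.60 to 1.08. Bcas1, a protein of oligodendrocytes that begin to make myelin, had levels of 5.32, 5.03 and 5.63 in tTA and 7.95, 8.58 and 11.22 in M337V. The day 6 difference of 5.58 was 47.9-fold, and it exceeded the mean of the day 3 and day 4 differences by 2.49. Ugt8, the enzyme of the myelin lipid galactosylceramide, had 5.0005, 5.16 and 4.77 in tTA and 7.12, 7.52 and 9.31 in M337V, at least 20.2-fold higher at day 6. Sox10, the transcription factor of the lineage, was at least 20-fold higher.

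Enpp2, the secreted enzyme autotaxin of maturing oligodendrocytes, had differences of 0.51, 0.62 and 2.37. Pdgfra and Olig1, which mark precursors, were 7.55-fold and 3.35-fold higher at day 6, and Cnp, an enzyme of myelin membranes, 2.38-fold. Olig2, a defining marker of the lineage, showed no such difference. It stood at 4.91 on tTA-6d, below detection, and at 5.001 on M337V-6d, the only 1 of the 6 arrays that detected it. The late markers were faint. Mbp, the myelin basic protein, stood at 4.82 on tTA-6d, below detection, and at 5.73 on M337V-6d, and Mog at 4.74, below detection, and 5.25. Neither reached 2-fold. The summed signal of the list was 3977 to 4469 in tTA and 8159 to 17515 in M337V.

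Genes of the motile cilium, which ependymal cells carry, were higher in M337V on all 3 days by about the same amount. Of 9 measured, 8 were beyond the yardstick and 0 lower, with medians of 1.96, 1.76 and 1.79. Tekt4, a protein of the ciliary microtubules, had levels of 6.44, 6.82 and 6.78 in tTA and 7.96, 8.58 and 8.57 in M337V, a day 6 difference of 1.79 (3.45-fold, yardstick 0.62). Rsph1, of the radial spoke, differed by 1.85 and Dynlrb2, a dynein light chain, by 1.86. Cfap126 was 4.42-fold higher at day 6 but lay inside its yardstick, since tTA alone went from 5.94 on day 3 to 8.12 on day 4. The median yardstick of this list was 0.89, against 0.27 over all genes. The summed signal was 1011 to 2334 in tTA and 4687 to 7974 in M337V, and Foxj1, the regulator that defines the cell type, was not analysed here.

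Neuronal genes split. Of 15 measured 5 were higher and 3 lower beyond the yardstick. Gap43, a growth cone protein, had levels of 5.84, 5.94 and 6.44 in tTA and 10.50, 11.23 and 11.30 in M337V, a day 6 difference of 4.86 (29-fold). Gad1, the enzyme that makes GABA, differed by 2.26. Syp, the vesicle protein synaptophysin, was at least 2.14-fold higher, and Ina and Syt1 at least 1.51-fold and 2.05-fold. Lower at day 6 were Scg2, a granin of secretory granules, by -1.66, Uchl1, a neuronal ubiquitin hydrolase, by -1.25 and the adhesion protein Ncam1 by -1.13. Snap25, of the synaptic release machinery, was detected on 3 arrays and not on tTA-6d. The summed signal of the list was 4546 to 5340 in tTA and 7095 to 7979 in M337V. Such a sum is weighted to bright genes, and Gap43 alone stood at 6.44 on tTA-6d and 11.30 on M337V-6d. It gives no direction for the list, whose median at day 6 was 0.54. Over the 11 members detected on both day 6 arrays the median was 0.05. The part of these cell type lists in the other differences was not tested.

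**Figure D3:**
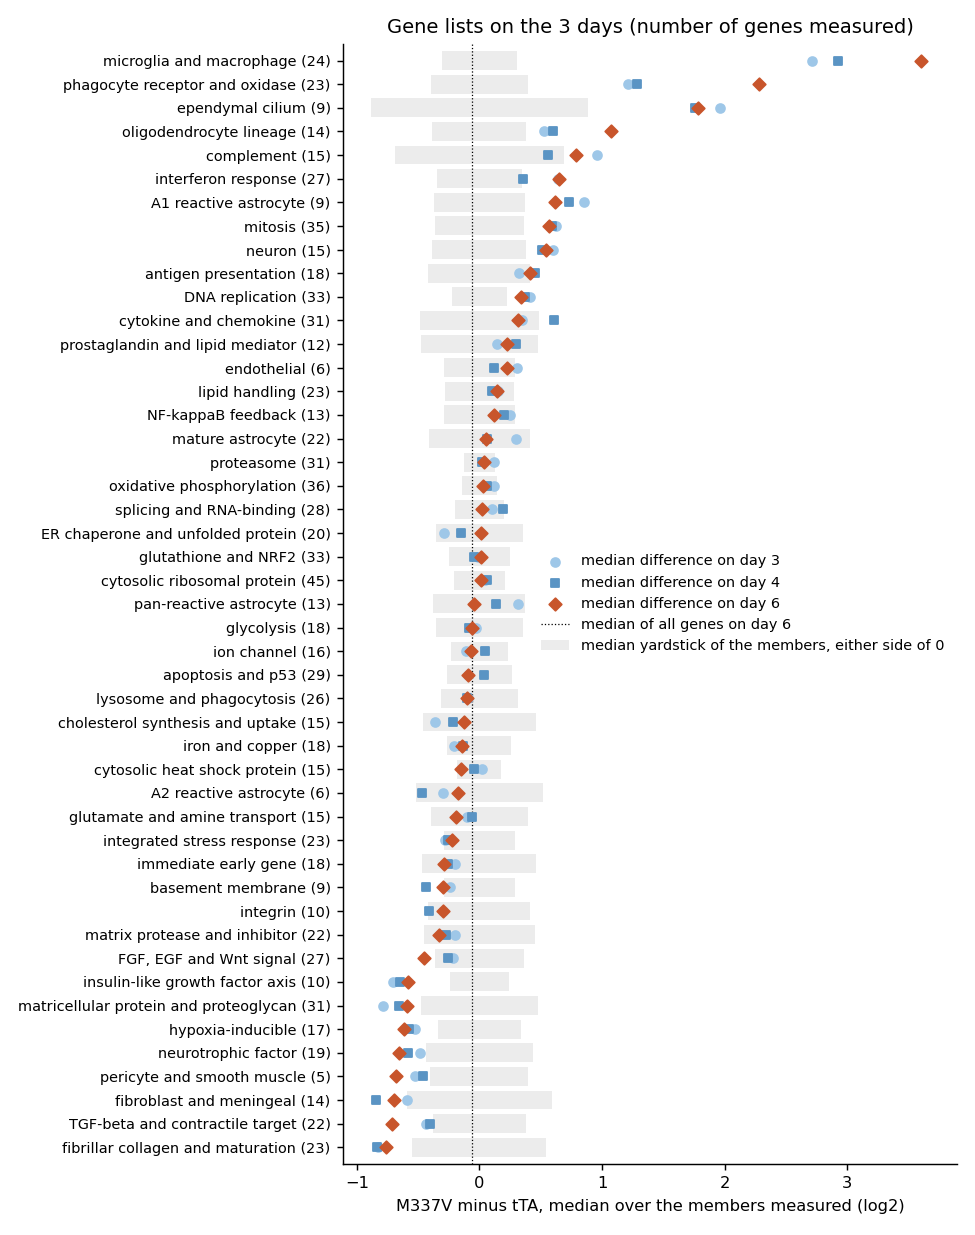
Median difference between the genotypes (horizontal, log2, M337V minus tTA) over the measured members of each gene list with at least 5 of them, on day 3 (pale circles), day 4 (squares) and day 6 (diamonds). Grey bars show the median yardstick of the members on either side of 0, the dotted line the median of all genes on day 6, and brackets the number of genes measured. Microglia and phagocyte genes lie furthest right, at 3.60 and 2.28 on day 6, and collagen genes furthest left, at -0.76.

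Among genes of innate defence, complement components beyond C1q were higher as well. Of 15 complement genes measured, 6 were beyond the yardstick and higher and 0 lower, with a median of 0.79. The 3 C1q chains are also in the microglia list, and without them 3 of 12 were beyond the yardstick with a median of 0.56. Cfb, factor B of the alternative pathway, had levels of 5.48, 6.65 and 7.16 in tTA and 8.54, 9.79 and 9.87 in M337V, a day 6 difference of 2.71 (6.54-fold, yardstick 1.24). C2, its counterpart in the classical pathway, differed by 1.52. Cfd, factor D, differed by 0.75, 0.31 and 1.80 on the 3 days. Serping1, the inhibitor of C1, was 2.49-fold higher but inside its yardstick of 1.55.

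Interferon-stimulated genes were higher on all 3 days. Of 27 measured 8 were beyond the yardstick and higher and 0 lower, and the medians were 0.64, 0.36 and 0.65. Mx1, a GTPase that blocks viruses, had levels of 6.12, 6.16 and 6.29 in tTA and 8.60, 8.73 and 9.01 in M337V. Its differences were 2.48, 2.57 and 2.72, so the day 6 value of 6.58-fold repeated those of the earlier days within 0.25. Mx2 and Oasl2 of the same antiviral programme were 4.28-fold and 3.77-fold higher at day 6, Ifi27 3-fold and Gbp2 2.21-fold. Ifit1, at least 2.29-fold higher, and the chemokines Cxcl10 (2.91-fold) and Cxcl11 (2.74-fold) made up the 8.

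The interferon-stimulated response element, searched on both strands as GAAA, 2 bases of any kind and GAAA again, occurred in the promoters of 14 of the 22 measured members with a sequence (63.6%), against 3.77% of all promoters. Of the 6 members beyond the yardstick that have a promoter sequence, 4 held it. These are Oasl2 (chr12:47383136-47383435, minus strand), Ifi27 (chr6:128355062-128355361, plus strand), Gbp2 (chr2:234005477-234005776, plus strand) and Cxcl10 (chr14:15988816-15989115, plus strand). Capitals mark the element on either strand, and the letters are a description of these windows only.
Oasl2: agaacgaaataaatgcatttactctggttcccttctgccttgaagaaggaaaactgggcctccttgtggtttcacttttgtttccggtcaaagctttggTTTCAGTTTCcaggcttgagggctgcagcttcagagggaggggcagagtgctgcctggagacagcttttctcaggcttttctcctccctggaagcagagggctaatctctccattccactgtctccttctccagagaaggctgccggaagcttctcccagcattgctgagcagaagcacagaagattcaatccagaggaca
Ifi27: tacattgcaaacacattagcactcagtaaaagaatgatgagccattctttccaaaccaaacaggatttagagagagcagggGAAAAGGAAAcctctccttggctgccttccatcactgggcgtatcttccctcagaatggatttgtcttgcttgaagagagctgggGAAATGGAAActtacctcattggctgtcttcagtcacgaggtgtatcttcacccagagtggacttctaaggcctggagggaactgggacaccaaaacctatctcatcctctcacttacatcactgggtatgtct
Gbp2: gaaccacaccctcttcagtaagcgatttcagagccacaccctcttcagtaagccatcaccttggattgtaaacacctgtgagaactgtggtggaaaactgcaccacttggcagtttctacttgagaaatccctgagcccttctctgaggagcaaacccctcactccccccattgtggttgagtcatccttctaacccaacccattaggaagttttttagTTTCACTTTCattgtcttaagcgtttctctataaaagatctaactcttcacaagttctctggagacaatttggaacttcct
Cxcl10: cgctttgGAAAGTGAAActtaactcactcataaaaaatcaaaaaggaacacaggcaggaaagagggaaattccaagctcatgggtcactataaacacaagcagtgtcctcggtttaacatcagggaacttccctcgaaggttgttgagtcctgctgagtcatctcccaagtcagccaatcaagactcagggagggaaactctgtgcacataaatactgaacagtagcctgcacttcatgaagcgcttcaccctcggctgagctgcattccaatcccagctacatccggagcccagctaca

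Antigen presentation genes had 5 of 18 members beyond the yardstick and higher, and 0 lower, with a median of 0.42. RT1-DMb, a chain of the class II peptide exchange factor, had levels of 4.94, 5.20 and 6.08 in tTA and 8.84, 9.55 and 11.23 in M337V, a difference of 5.16 (35.7-fold) at day 6. RT1-DMa, its partner chain, differed by 1.94. The class I genes RT1-A3, RT1-A1 and RT1-S3 differed by 1.59, 1.16 and 1.14, and since class I genes are near copies of one another their probes may share transcripts. In the list of A1 reactive astrocyte genes 3 of 9 were higher, all of them named already (RT1-A1, RT1-S3 and Gbp2), and 1 was lower, Fbln5, a protein of elastic fibres, at -1.003. The median was 0.85, 0.73 and 0.61 on the 3 days. In the pan-reactive astrocyte list 1 of 13 was higher, Cxcl10, and 1 lower, the secreted protease inhibitor Serpina3n at -1.67. Each is 7.69% of the list, against 5.13% higher and 2.04% lower of all genes. The A2 list of 6 had Cd14 higher and Emp1, a membrane protein, lower at -1.32. The medians of these last lists, -0.04 and -0.17, changed sign under some other scalings.

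Cytokines and chemokines differed both ways, 11 higher and 3 lower of 31. Ccl6 and Ccl3, which recruit myeloid cells, were not detected on tTA-6d, against which M337V-6d was higher at least 11.5-fold and 9.49-fold. Il1b, a product of the inflammasome pathway, was at least 2.3-fold higher and Il18 2.67-fold. Spp1, osteopontin, had levels of 10.73, 8.91 and 8.13 in tTA and 11.13, 10.57 and 11.14 in M337V. The 8.04-fold difference at day 6 went with a control level 1.69 below its mean of days 3 and 4 and an M337V level 0.29 above.

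Lower in M337V were Cxcl1, a chemoattractant of neutrophils, and Cxcl12, which guides precursor cells, by -1.71 and -1.68, and Tgfb3 by -1.64. Ccl20, a chemokine of mucosal and inflamed tissue, differed by 1.63 on day 4 and by -1.08 on day 6, inside its yardstick of 1.76. The median of the list was 0.32 over the measured members and -0.40 over the 19 detected on both day 6 arrays, so the list has no settled direction. In the feedback list of NF-kappaB, 1 of 13 was beyond the yardstick (7.69%, against 7.17% of all genes), the adhesion protein Vcam1 at 1.26. Lcn2, a secreted iron-siderophore carrier of reactive astrocytes, had levels of 6.88, 7.84 and 8.20 in tTA and 8.42, 9.74 and 9.49 in M337V, a day 6 difference of 1.29 just inside its yardstick of 1.32. Chi3l1, a secreted chitinase-like protein, differed by 1.18, 0.68 and 0.34.

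The lipid mediators had 4 of 12 members higher and 0 lower. Ptgds, the lipocalin-type prostaglandin D synthase, had 4.38, 4.48 and 4.42 in tTA and 5.49, 4.93 and 8.28 in M337V, and was at least 9.93-fold higher at day 6. On M337V-6d it stood 3.07 above the mean of the earlier M337V arrays. Tbxas1, thromboxane synthase, was 8.71-fold higher and Alox5ap, which serves leukotriene synthesis, at least 3.12-fold. Pla2g4a, the cytosolic phospholipase that releases arachidonic acid, was 2.58-fold higher. In the lipid handling list, with 3 higher and 1 lower of 23, Ch25h, cholesterol 25-hydroxylase, was at least 6.04-fold higher, with differences of 1.06, 2.20 and 2.96 on the 3 days.

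Among the lists, those of matricellular proteins and of fibrillar collagens had the most lower members, 10 and 8. The collagen, basement membrane, matricellular, integrin and matrix protease lists together had 23 lower and 7 higher of 94 measured. Of all 169 lower genes 53 are in any list. Of 23 fibrillar collagen and collagen maturation genes measured, 8 were beyond the yardstick and lower and 0 higher, with medians of -0.83, -0.83 and -0.76. Lox, the enzyme that crosslinks collagen, had levels of 13.40, 12.73 and 11.87 in tTA and 11.93, 11.06 and 10.06 in M337V. Its day 6 difference of -1.81 (3.5-fold) exceeded a yardstick of 0.87, although both genotypes had their lowest level on day 6. Adamts2, which trims procollagen, differed by -1.75 and Loxl2 by -1.62. Col1a1 and Col1a2, the chains of type I collagen, differed by -1.55 and -1.12, and Col14a1 and Col5a1 by -1.22 and -1.04.

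Col8a1, a short-chain network collagen, had the largest negative difference of all genes detected on both day 6 arrays. It had 10.79, 10.62 and 10.42 in tTA and 7.52, 7.56 and 6.98 in M337V, a difference of -3.44 (10.9-fold) with a yardstick of 0.17. Of the 9 basement membrane genes measured it was the only one beyond the yardstick. Itga11, a collagen-binding integrin chain, had 9.57, 8.75 and 8.11 in tTA and 5.49, 5.26 and 4.95 in M337V. The difference was -4.09, -3.48 and -3.16, smaller at day 6 than before. Itga1, which also binds collagen, differed by -1.97, while Itgb4, the laminin-binding chain of hemidesmosomes, was higher by 2.15.

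Matricellular proteins and proteoglycans had 10 of 31 members lower and 3 higher. Tnn, tenascin-N, had levels of 13.42, 13.19 and 12.43 in tTA and 12.01, 11.21 and 9.54 in M337V. The differences of -1.41, -1.98 and -2.88 were larger with each day sampled, and day 6 exceeded the mean of the earlier days by -1.18. Thbs2, a thrombospondin that astrocytes secrete, differed by -2.005 and Bgn, the proteoglycan biglycan, by -1.84. Fn1, fibronectin, had 14.12, 13.96 and 13.68 in tTA and 13.29, 13.03 and 12.26 in M337V, a difference of -1.42. Postn, periostin, differed by -2.13, barely above its yardstick of 2.11. Vcan, the proteoglycan versican, was higher by 2.52.

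TGF-beta and contractile targets had 6 of 22 lower and 0 higher, and their median went from -0.44 and -0.40 to -0.72. Ltbp1, which stores latent TGF-beta in the matrix, had differences of -1.37, -1.39 and -2.23, and Ltbp2 of -1.28, -1.36 and -1.49. Ccn2, a secreted target of TGF-beta, differed by -1.71 at day 6 (3.28-fold). Smad6 and Id1, targets of BMP signalling, differed by -1.39 and -1.09. The insulin-like growth factor axis had 3 of 10 lower and 1 higher beyond the yardstick. Igfbp3, a binding protein, differed by -2.90 with levels of 11.62, 10.42 and 9.54 in tTA and 9.09, 8.10 and 6.64 in M337V. Pappa and Htra1, proteases of the axis, differed by -1.52 and -1.20, and Igf2 was at least 5.77-fold higher.

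Markers of fibroblast-like and meningeal cells differed beside these genes. Of 14 measured 5 were lower beyond the yardstick, namely Col1a1, Col1a2, Fn1 and Postn, which the matrix lists also hold, and Prrx1, a mesenchymal transcription factor, at -1.16. The other 3 beyond the yardstick, Ptgds, Igf2 and Lum, were higher. The summed signal of the list was 45109.6 to 65619.6 in tTA and 22678 to 40463 in M337V, lowest on day 6 in both genotypes. None of the 5 pericyte and smooth muscle genes was beyond the yardstick, and all 5 were negative, with a median of -0.68. The part of such cells in the matrix difference was not tested.

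Hypoxia-inducible genes had 3 of 17 lower and 0 higher, with a median of -0.61. Car9, a carbonic anhydrase of hypoxic cells, had 7.71, 7.34 and 6.67 in tTA and was not detected on M337V-6d, at least 3.42-fold lower. Adm, adrenomedullin, differed by -1.34, -1.45 and -1.42. The third was Lox, given above. Glycolysis genes had 0 of 18 beyond the yardstick and a median of -0.06. Neurotrophic factors had 2 of 19 beyond the yardstick and lower, Thbs2 and Hbegf (-1.10), and 1 higher, Tgfa. The median of that list was -0.66.

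Of 35 mitosis genes measured 33 were positive at day 6, against 43.3% of all genes, but 4 were beyond the yardstick, and the medians were 0.63, 0.60 and 0.57. Both genotypes had lower levels at day 6 than before, with median changes of -0.61 in tTA and -0.67 in M337V. Bub1b, of the spindle checkpoint, had 6.37, 6.44 and 5.37 in tTA and 7.39, 7.48 and 6.95 in M337V, a difference of 1.59. Racgap1, of cytokinesis, differed by 1.27 and Ccna2, cyclin A2, by 1.01.

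Aurkb, the kinase of the chromosomal passenger complex, stood apart from the rest of its list. It had 8.53, 8.93 and 8.54 in tTA and 11.13, 11.78 and 12.15 in M337V, a difference of 3.61, and was the only named mitosis gene here whose M337V level was highest on day 6. Whether its probe reads other transcripts was not tested. DNA replication had 3 of 33 beyond the yardstick and higher (9.09%, against 5.13% of all genes). They were Gins1 (1.68), Prim2 (1.20) and Mcm3 (1.06), and the median of the list was 0.34.

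The core of the cell cycle homology region, TTTGAA, a site bound by the complexes that control mitotic genes, was searched on both strands. It occurred in 23 of 30 mitosis promoters (76.7%) against 18.1% of all promoters. Bub1b (chr3:126016817-126017116, plus strand) was the 1 mitosis gene beyond the yardstick with a promoter sequence, and it is shown with the core in capitals.
Bub1b: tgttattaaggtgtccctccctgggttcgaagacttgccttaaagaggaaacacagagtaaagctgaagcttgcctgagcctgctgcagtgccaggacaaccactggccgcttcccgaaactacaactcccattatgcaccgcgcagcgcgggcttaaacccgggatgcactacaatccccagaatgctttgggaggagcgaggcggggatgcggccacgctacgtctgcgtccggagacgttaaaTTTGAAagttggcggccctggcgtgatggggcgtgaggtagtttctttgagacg

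Several functions showed little or no difference at day 6. No mature astrocyte gene of 22 measured was beyond the yardstick, and the median was 0.05, with a sign that changed with the scaling. The largest sizes in that list were Slco1c1, a thyroid hormone transporter, at -1.31 inside a yardstick of 1.44, Fgfr3 at -0.99 and Gjb6, a gap junction protein, at 0.94. The summed signal of the list was 130778 to 183379.6 in tTA and 164390 to 200735 in M337V. Among glutamate and amine transporters 1 of 15 was beyond the yardstick, Slc1a1, the neuronal-type glutamate transporter, with 7.15, 7.21 and 7.45 in tTA and 9.57, 10.33 and 10.69 in M337V (9.44-fold).

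Oxidative phosphorylation (36 measured, median 0.03), the proteasome (31, 0.04), splicing and RNA-binding proteins (28, 0.02), chaperones of the endoplasmic reticulum (20, 0.02), cytosolic heat shock proteins (15, -0.15), cholesterol synthesis (15, -0.13) and the integrated stress response (23, -0.22) had 0 members beyond the yardstick. Their medians changed sign under some of the other scalings, so no direction is given. The nearest to it were Ppp1r15a and Ddit3, stress-induced regulators of translation and cell death, at -0.9986 and -0.95. Of 45 cytosolic ribosomal proteins 1 was beyond the yardstick, Rps9, at 9.97, 9.27 and 9.36 in tTA and 12.39, 11.98 and 11.86 in M337V (5.63-fold). Rps9 had 2 detected probes, and the values are of the probe with the higher mean level. Whether that probe reads other transcripts was not tested. Beyond the yardstick in glutathione metabolism were Mgst2 (-2.08) and Gstm2 (-1.36) of 33.

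**Figure D4:**
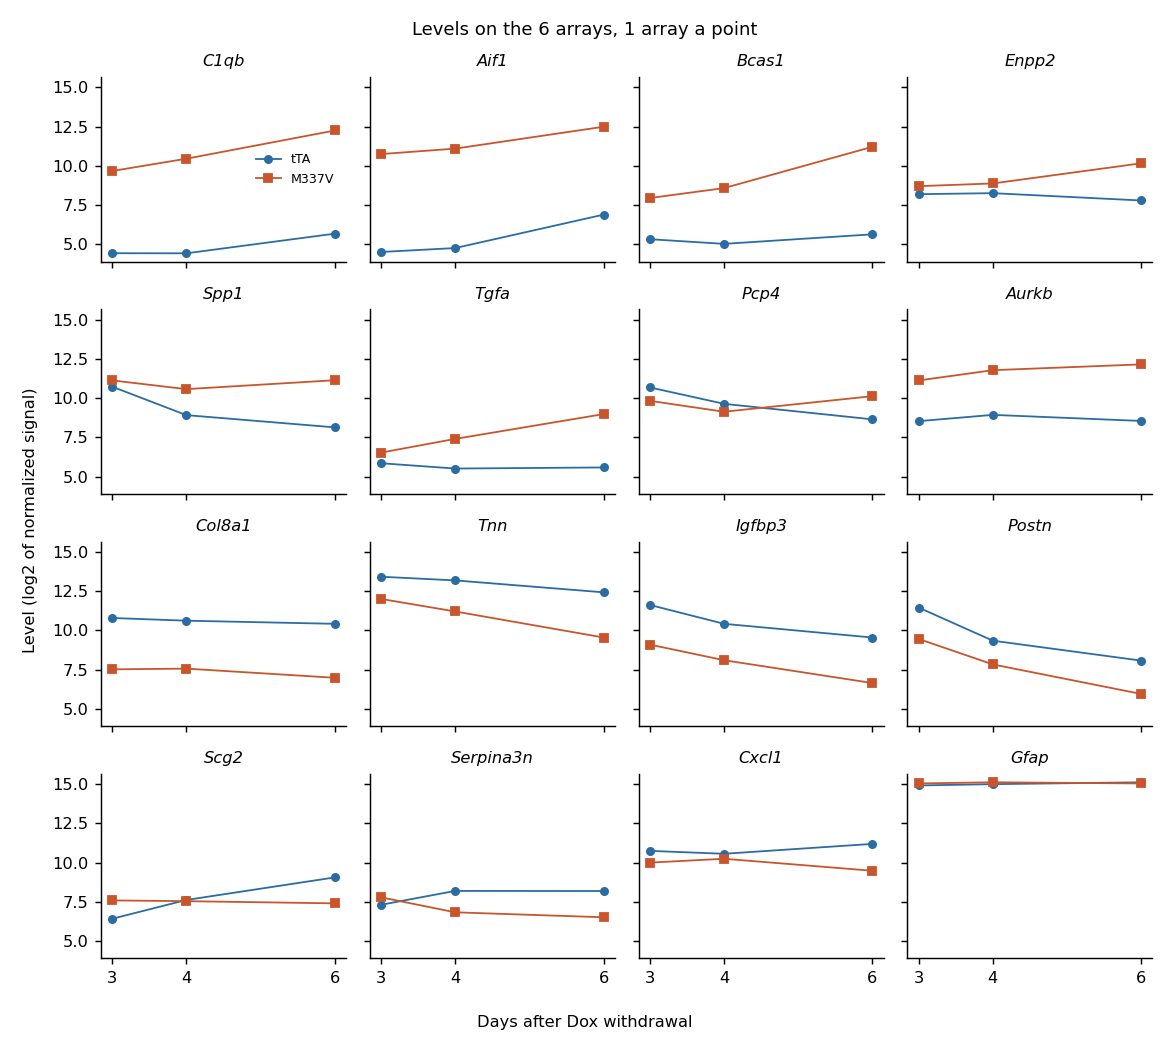
Level of 16 genes on the 6 arrays (vertical, log2 of normalized signal, the same scale in all panels) by days after Dox withdrawal (horizontal), tTA as blue circles and M337V as orange squares, 1 array a point and no error. C1qb, Aif1 and Col8a1 are apart on every day, Bcas1, Tgfa and Tnn draw further apart by day 6, Pcp4 and Scg2 cross, and Gfap overlaps.

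Most genes beyond the yardstick at day 6 differed in the same direction on days 3 and 4, measured on arrays that the day 6 difference does not use. The same share over all measured genes was not counted. Arrays of one genotype may share a culture or batch and were normalized together, so the agreement is no independent support. Of the 426 higher genes 398 were positive on both earlier days, and 157 of the 169 lower ones were negative on both. At least 2-fold the same way on both earlier days were 223 and 61, and under 2-fold on both were 124 and 65. The difference was larger at day 6 than on either earlier day for 322 of the higher and 118 of the lower genes. Since these genes were chosen by their day 6 size, that count is a description of the choice as well. Their median difference was 1.12, 1.28 and 1.61 on days 3, 4 and 6 for the higher and -0.95, -0.98 and -1.23 for the lower.

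A smaller set of 52 higher and 33 lower genes had differences within 0.25 of each other on days 3 and 4. Their day 6 difference also lay within 0.25 of the mean of those 2 days. Ggcx, the carboxylase that uses vitamin K, had differences of 5.11, 5.05 and 5.21, with levels of 10.15, 9.90 and 9.80 in M337V and no detection on tTA-6d. Whether the Ggcx probe reads another transcript was not tested. Mgst2, a microsomal glutathione transferase, had -2.18, -2.08 and -2.08. Mx1, Mx2 and Oasl2 were among them, and so were Rasl11b, a small GTPase (-1.75, -1.88 and -2.02), and the potassium channel Kcnk2 (-1.66, -1.55 and -1.81).

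More genes left their earlier level on M337V-6d than on tTA-6d. Against the mean of days 3 and 4, 180 genes stood at least 2-fold away on M337V-6d (2.17%) and 81 on tTA-6d (0.976%). These 2 counts use the genes detected on either day 6 array, 850 of them on M337V-6d only and 472 on tTA-6d only. That filter tilts the comparison toward M337V-6d. The excess of the day 6 difference over the mean of the earlier ones was at least 1 for 50 genes upward (0.789%) and 16 downward (0.253%) of the 6335 detected on all 6 arrays. After Bcas1, the largest upward were Pcp4, a calmodulin regulator (2.16), Tgfa, a ligand of the EGF receptor (2.12), Cfp (2.07), Spp1 (1.98), Enpp2 (1.81), Rgs10, an inhibitor of G protein signals (1.77), and Gask1b, a Golgi kinase-like protein (1.75). The largest downward were Scg2 (-2.20), Ccl20 (-1.85), Pnoc, the precursor of nociceptin (-1.43), Pinx1, a telomerase inhibitor (-1.30), Serpina3n, a secreted protease inhibitor (-1.23), Tnn and Cxcl1 (both -1.18) and Ass1, an enzyme of arginine synthesis (-1.15).

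These genes came by different routes. Tgfa had levels of 5.85, 5.51 and 5.58 in tTA and 6.52, 7.40 and 8.98 in M337V, so that M337V-6d stood 2.02 above the earlier M337V arrays and tTA-6d -0.10 from its own. Scg2 had 6.42, 7.62 and 9.06 in tTA and 7.59, 7.54 and 7.40 in M337V, where tTA-6d stood 2.04 above its earlier arrays. Pcp4 had 10.68, 9.64 and 8.65 in tTA and 9.83, 9.13 and 10.13 in M337V, and both arrays contributed. Serpina3n had 7.31, 8.20 and 8.19 in tTA and 7.79, 6.83 and 6.52 in M337V. Ass1 had 9.27, 9.71 and 10.19 in tTA and 8.60, 8.68 and 8.19 in M337V.

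**Figure D5:**
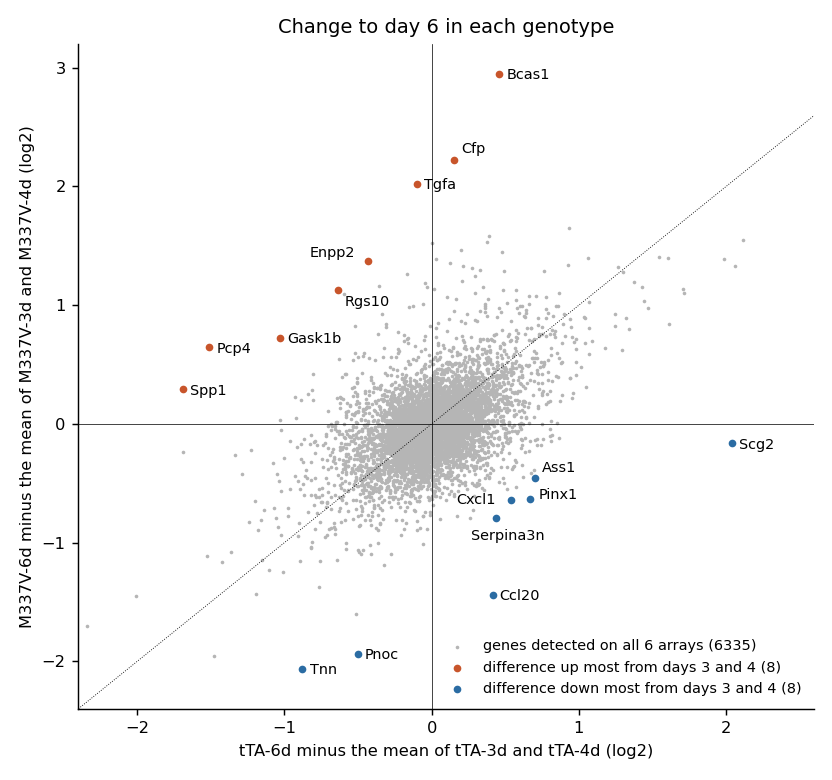
For the 6335 genes detected on all 6 arrays, the M337V-6d level minus the mean of M337V-3d and M337V-4d (vertical, log2) against the same in tTA (horizontal, log2). Points on the dotted diagonal have an unaltered genotype difference. Coloured are the 8 genes with the largest excess of the day 6 difference upward (orange) and downward (blue), from Bcas1 at 2.49 to Scg2 at -2.20.

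Few genes changed sides. Opposite in sign on both earlier days were 3 of the higher genes, Calcrl, Dgat2 and Pcp4, and 2 of the lower ones, Plac1 and Thbd. Calcrl, a receptor for adrenomedullin and related peptides, had differences of -0.17, -0.09 and 1.13, and Dgat2, an enzyme of triglyceride synthesis, of -0.80, -0.24 and 1.17. Thbd, thrombomodulin, had 0.05, 0.13 and -1.02, and Plac1 0.38, 0.11 and -1.03. Of the 6 arrays, only M337V-6d detected Calcrl and only tTA-6d detected Plac1. Their signs on days 3 and 4 thus rest on undetected signals. At day 6 Calcrl was at least 1.5-fold higher and Plac1 at least 1.7-fold lower. At the 2-fold threshold itself, the smallest size counted was 1.002 and the largest not counted 0.999. The 11 genes at least 2-fold apart but inside their yardstick were Car3, Ccl20, Cfap126, Gpr37l1, Lcn2, Pde10a, Ramp2, Serping1, Slco1c1, Slitrk6 and Tf, each of which differed at least as far between days 3 and 4 in one genotype.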

How the data were processed

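Total RNA was labelled with biotin during amplification and read on Illumina beadchips, 1 array per genotype and day, per the labels' protocols. GenomeStudio is the software that the submitters' processing notes name, with a version not given in the sources used here. The deposited table of signals has, per the file headers, a mean bead intensity per probe, linear and not normalized. It also has, as the file headers name it, a deposited detection p-value that ranks each probe among negative controls. A deposited value table is on the log2 scale. Its differences between arrays were within 0.00238 of those of log2 intensity after subtraction of an upper quartile per array. Its centring per probe is unknown, its direction is that of the signal, and its column medians lay between -0.15 and 0.07.

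The intensities were background-corrected with normexp from the detection p-values, an offset of 16 was added, and the 6 arrays were quantile-normalized and put on the log2 scale with limma 3.58.1 in R 4.3.3. The offset shrinks the differences of dim genes. Of 22523 probes 13793 have 1 gene symbol in GEO's platform annotation, 0 have several and 8730 have none. Of the named probes 13752 matched RefSeq's current rat gene table (GRCr8, used for names and promoter sequences) and 41 kept the platform's symbol. A gene is represented by its detected probe of highest mean level, and 149 genes had several detected probes. Where 1 of the day 6 arrays did not detect a gene, "at least N-fold" sets the detected array against the higher of the dim signal and that array's lowest detected signal.

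No test was run, since each group holds 1 array, and the number of arrays limits the precision. Genes were named by a rule: the 15 largest differences each way among genes detected on both day 6 arrays and beyond the yardstick, the 10 largest bounds each way among those detected on 1 of them, the 4 largest sizes in each list, the 8 largest excesses of the day 6 difference each way, and Tardbp, Gfap, Lcn2 and Chi3l1. The genes, the 48 lists and the rules were chosen with earlier results of these data known. The counting was tested on simulated data, with changes put only into named probes of intermediate signal on tTA-6d. Changes in genes dim or undetected on tTA-6d were not covered by it. Alternatives were the background correction, its offset, the scaling, the deposited values, the filter on detection, the choice of probe and the fold threshold.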

Additional observations from a re-analysis of the deposited data

Results flagged for a closer look

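Scg2 and Ccl20 went opposite ways on different days. Scg2 differed by -1.66 at day 6 and by 1.17 on day 3. Ccl20 differed by -1.08 at day 6 and by 1.63 on day 4, where M337V-4d stood at 7.23 and the other 5 arrays lay between 4.92 and 6.00. With 1 array per genotype and day, neither reversal was tested.

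Among the 3277 probes without a gene symbol here that were detected on either day 6 array, 165 were beyond the yardstick (5.04%), 123 higher and 42 lower in M337V. Their differences ran from -2.53 to 5.20, and they are in no count of genes.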

How the results depend on the processing

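The counts depended on the background correction, the scaling and the threshold, and the causes were not tested. Genes at least 2-fold higher and lower, and beyond the yardstick, numbered 191 and 55, and 188 and 53, without background correction (77.64% of those apart were higher), 202 and 74, and 200 and 72, in the deposited values, and 286 and 90, and 283 and 89, with an offset of 50 (76.06%). Median scaling gave 98 lower, 92 beyond the yardstick, and 85.92% higher, and cyclic loess 78.09%. Genes detected on both day 6 arrays gave 267 higher, 261 beyond the yardstick, and 63.42%, and by construction leave out those detected on 1 array. A threshold of 1.5-fold gave 842 and 789, and 795 and 733 beyond the yardstick, and 3-fold gave 226 and 45, and 225 and 45. Signs were followed over 10 alternatives for 224 genes, named by the rule or added after their values were seen. All 137 of these beyond the yardstick kept their sign wherever they were measured. Of the 137, 93 were at least 2-fold apart without background correction and 98 in the deposited values. Other genes of the text, among them Cd53, Tekt4 and Fn1, were not in this set. The medians of 28 of 48 lists kept their sign, and 0 changed sign by more than their yardstick. No paired analysis was possible because the day 6 difference sets 1 array against 1, and a fit over the 3 day-matched pairs, which was not run, would give the mean over days. Signal over background limits the genes detected on 1 day 6 array to bounds. With signals below background set to each array's lowest detected signal, an alternative chosen after seeing the data, 379 higher and 160 lower genes were beyond the yardstick.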

Other observations

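Transporters and iron genes not described in the text also differed at day 6, and they were chosen after their values were seen. Slc7a3, a carrier of arginine and lysine, had levels of 7.28, 6.69 and 6.56 in tTA and 9.27, 10.11 and 10.24 in M337V on days 3, 4 and 6, a difference of 3.69 (12.9-fold). Slc39a12, a zinc carrier, had differences of 2.91, 2.76 and 2.86. Slc11a1, an iron and manganese carrier of phagosomes, was at least 2.85-fold higher, and Heph, a ferroxidase, was 2.96-fold higher, the 2 of 18 members of the iron and copper list beyond the yardstick, whose median was -0.14 with 12 members negative. Tf, transferrin, had 10.12, 12.01 and 13.18 in tTA and 12.17, 13.40 and 14.33 in M337V, so that its difference was 2.05, 1.39 and 1.15, at day 6 inside its yardstick of 1.89, while both genotypes stood higher on each later day.

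Anxa3, an annexin of phagocytes and glia, had levels of 7.28, 6.50 and 6.89 in tTA and 9.62, 10.07 and 11.37 in M337V, a difference of 4.48 (22.2-fold). Pnlip, the pancreatic lipase, was not detected on any tTA array and stood at 8.52, 8.82 and 9.80 in M337V, at least 28.5-fold higher at day 6. Whether its probe reads another transcript was not tested.

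On the lower side, Cpxm2, a carboxypeptidase-like secreted protein, differed by -2.65, Rnf113a2, a RING finger protein, by -2.64, Fst, the activin-binding protein follistatin, by -2.39 and Hpse, heparanase, by -2.35. Hsd11b1, which regenerates active glucocorticoid, had 9.12, 9.63 and 10.18 in tTA and 8.10, 8.25 and 8.07 in M337V, with differences of -1.02, -1.38 and -2.11. Cidea, a lipid droplet protein, differed by -2.12 and Lypd1 by -2.07. Htr7, a serotonin receptor, was at least 3.3-fold lower, Npvf, a neuropeptide precursor, at least 5.15-fold lower and Cyp2e1, a cytochrome P450, at least 2.28-fold lower.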
